A study of Mus musculus with 4 samples.

Results

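Guanylate-binding proteins (GBPs) and immunity-related GTPases (IRGs) are large GTPases whose genes are switched on by interferons, and 10 of them, the GBP genes Gbp2, Gbp3, Gbp4, Gbp5, Gbp6, Gbp7 and Gbp9 and the IRG genes Irgm1, Irgm2 and Igtp, were taken by symbol from the 35798 genes of the deposited count table. All 10 passed the filter on low counts. The table holds bulk RNA-seq of Ly49H+ NK cells, a subset that carries an activating receptor for murine cytomegalovirus (MCMV). Donor NK cells of wild-type mice carrying CD45.1 and of TNFR2 KO mice carrying CD45.2 were transferred together into NSG mice, which were then infected with MCMV. On D3.5 both populations were sorted from spleen by Ly49H and CD45 allele, giving 2 wild-type and 2 TNFR2 KO libraries. Every library came from the pooled spleens of 3 NSG mice, and each pool gave 1 library of either genotype, sharing a replicate number. The study calls this a single experiment in duplicate, so p-values measure the spread between these pools.

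The genotypes also differ in CD45 allele and in the gate used to sort them, and these cannot be told apart. NSG mice, on the NOD background, lack T, B and NK cells of their own but retain myeloid cells. Totals ran from 32713256 to 39543650 counts per library. Levels are in CPM, counts scaled to a common library total with edgeR's TMM factors, and a negative log2-fold change means a lower level in TNFR2 KO. Tnfrsf1b, which encodes TNFR2, was checked first, at 264.7 and 268.6 CPM for wild-type and 55.1 and 58.6 CPM for TNFR2 KO (log2-fold change -2.23, adjusted p = 1.35e-13 in edgeR). Among NK identity genes, Ncr1 was higher, from 258.3 and 255.5 to 511.3 and 510.5 CPM, as was Klra8, which encodes Ly49H, from 313.3 and 315.9 to 762.1 and 725.8 CPM. Of 37 macrophage or monocyte markers, 36 were lower in TNFR2 KO past both thresholds of the study (an adjusted p below 0.05 with a log2-fold change beyond 1 in size), with Ccr2 higher. The summed level of these markers was 5074 and 5001 CPM for wild-type and 1330 and 1316 CPM for TNFR2 KO libraries, and 4670, 4617, 643 and 646 CPM without Ccr2, and no marker was at 0 in every library. In bulk RNA, fewer cells of a type and less RNA per cell cannot be told apart.

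GBPs and IRGs act on membranes inside the cell. Interferon receptors signal through JAK kinases to transcription factors that act at gamma-activated sites (GAS) and at interferon-stimulated response elements (ISRE), the latter also bound by IRF1. The GTPases made in response gather on vacuoles that hold bacteria or parasites and break them open, and several promote inflammasome activation in macrophages. The 3 IRG members form the IRGM class, which keeps the effector IRGs inactive on the cell's own membranes. All members are best known from macrophages and interferon-treated fibroblasts, while lymphocytes also express them.

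The GBP members lie in 2 clusters of GRCm38 (mm10). On the plus strand of chromosome 3 are Gbp5 (142493978 to 142522344), Gbp7 (142530342 to 142550149), Gbp3 (142560026 to 142573209) and Gbp2 (142620602 to 142638008), and on the minus strand of chromosome 5 are Gbp9 (105077630 to 105139539), Gbp4 (105115767 to 105139586) and Gbp6 (105270702 to 105293698). All 3 IRG members lie on chromosome 11, Irgm1 on the minus strand from 48861968 to 48871683, and Igtp (58199556 to 58207591) and Irgm2 (58199618 to 58222782) on the plus strand. None lies on chromosome 4 with Tnfrsf1b. The principal transcript of each GBP member has 11 exons, against 3 for Irgm1 and Igtp and 2 for Irgm2. In the GENCODE annotation Gbp9 overlaps Gbp4, and Irgm2 overlaps Igtp, on the same strand.

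Promoter windows from RefSeq (GRCm38.p6; 250 bases before to 50 after the transcription start) matched 7 of the 10 members by symbol, with Gbp4, Gbp6 and Gbp9 unmatched. The ISRE core GAAANNGAAA, searched on both strands, occurred in the windows of all 7 genes and in 3.44% of all 32851 windows. The GAS core TTCNNNGAA, which reads the same on both strands, occurred in those of Gbp5, Gbp7, Igtp and Irgm2 and in 8.30% of all windows. An NF-kB consensus occurred in those of Gbp2, starting 8 bases after the start, and Gbp5, starting 77 bases before it, and in 8.46% of all windows. The ISRE match began 59 bases before the start in Gbp2, 53 in Gbp7, 64 in Irgm2, 34 in Igtp and 165 in Gbp5, while Gbp3 and Irgm1 each held a pair of overlapping matches within 45 bases of the start. No ISRE match overlapped a GAS or NF-kB match. The 250 bases before the start are shown for Gbp2 and Gbp5, whose transcripts fell most, for Gbp7, the member with a window whose transcript fell least, and for the neighbours Igtp and Irgm2, with ISRE matches in capitals. They cover chr3:142620413-142620662, chr3:142496684-142496933, chr3:142530086-142530335, chr11:58199306-58199555 and chr11:58214727-58214976, all on the plus strand and written 5′ to 3′.
Gbp2: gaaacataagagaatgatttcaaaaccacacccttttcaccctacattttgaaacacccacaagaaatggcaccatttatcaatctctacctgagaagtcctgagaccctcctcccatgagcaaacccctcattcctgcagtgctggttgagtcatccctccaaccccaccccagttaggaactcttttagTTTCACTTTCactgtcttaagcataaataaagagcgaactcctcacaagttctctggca
Gbp5: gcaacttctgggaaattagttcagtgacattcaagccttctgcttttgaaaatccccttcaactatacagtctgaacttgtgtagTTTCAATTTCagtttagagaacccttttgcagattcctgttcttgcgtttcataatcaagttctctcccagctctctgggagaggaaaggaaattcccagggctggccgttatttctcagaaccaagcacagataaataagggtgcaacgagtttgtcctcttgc
Gbp7: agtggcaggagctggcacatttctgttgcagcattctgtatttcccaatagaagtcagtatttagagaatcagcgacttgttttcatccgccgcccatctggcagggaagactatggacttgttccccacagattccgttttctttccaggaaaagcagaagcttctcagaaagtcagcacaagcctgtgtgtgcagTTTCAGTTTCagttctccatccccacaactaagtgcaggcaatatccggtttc
Igtp: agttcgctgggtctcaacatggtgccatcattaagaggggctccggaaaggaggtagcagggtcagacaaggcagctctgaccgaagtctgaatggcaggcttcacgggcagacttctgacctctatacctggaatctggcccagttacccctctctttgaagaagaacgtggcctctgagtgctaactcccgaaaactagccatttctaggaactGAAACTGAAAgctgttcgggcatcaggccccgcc
Irgm2: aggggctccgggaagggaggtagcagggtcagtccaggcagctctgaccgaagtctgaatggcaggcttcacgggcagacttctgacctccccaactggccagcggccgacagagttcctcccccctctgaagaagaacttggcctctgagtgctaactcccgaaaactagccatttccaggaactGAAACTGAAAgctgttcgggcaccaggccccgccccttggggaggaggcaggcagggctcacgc
The stretches of Igtp and Irgm2 were near copies, with 194 of 215 aligned bases (90.2%) identical, a longest shared run of 55 bases, and a GAS match just upstream of the ISRE match in both. A match describes the letters in the window and not the binding of a factor, which these data do not measure.

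**Figure D1:**
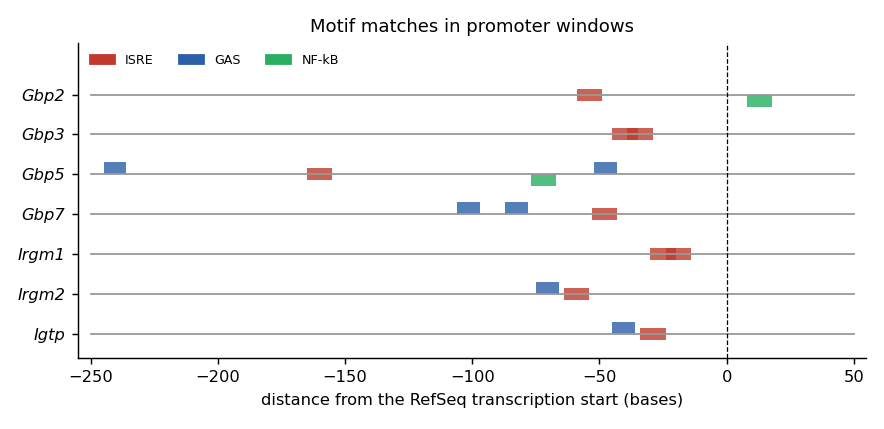
Matches to the ISRE (red), GAS (blue) and NF-kB (green) motifs in the RefSeq promoter windows of the 7 members with a window, by distance in bases from the transcription start (dashed line). Every window holds an ISRE match, within 64 bases of the start except in Gbp5 (165 bases).

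TNFR2 KO libraries held less of all 10 GTPase transcripts than wild-type libraries, judged by an adjusted p below 0.05 (quasi-likelihood test of edgeR, Benjamini-Hochberg adjustment over 13822 genes). By this rule 26.2% of all genes were lower and 24.2% higher. Gbp5 and Gbp2 stood apart, with falls of 4.03-fold and 3.69-fold, and were the only members past both thresholds, where 11.8% of all genes were lower and 1.56% higher. The other 8 fell by less, from 1.94-fold for Irgm1 to 1.20-fold for Gbp9. The median log2-fold change was -0.68 over the members and -0.003 over all genes tested. For any single gene in this design of 2 and 2 libraries, the smallest two-sided p of an exact permutation test is 0.333.

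Both wild-type libraries lay above both TNFR2 KO libraries for all 10 members, an order seen in 37.7% of all genes tested. Members averaged between 93.2 and 521.8 CPM over the 4 libraries, so counting error was small. Among the 4397 genes that averaged 50 CPM or more, 22.0% were lower and 41.9% higher at the adjusted p, and 2.39% were lower and 0.569% higher past both thresholds.

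**Figure D2:**
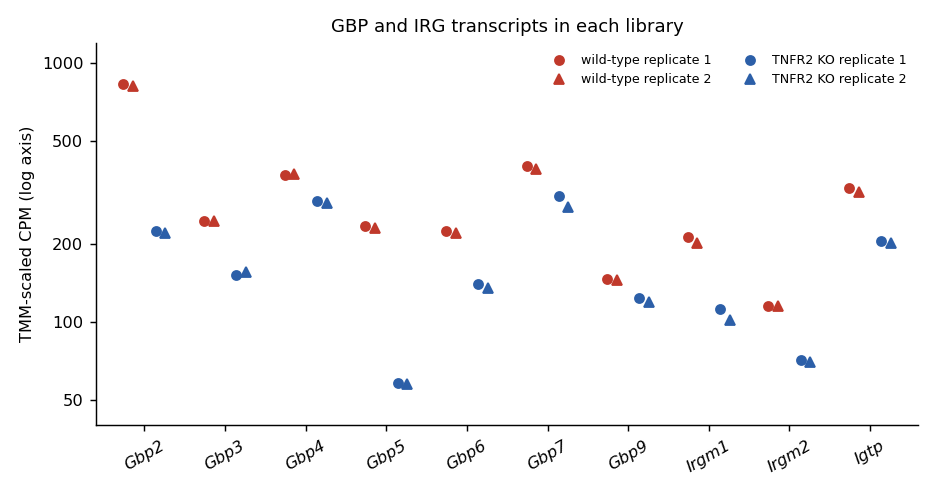
TMM-scaled CPM (log axis) of the 10 members in each wild-type (red) and TNFR2 KO (blue) library, circles for replicate 1 and triangles for replicate 2. The genotypes do not overlap for any member, and the gap is widest for Gbp5 (234.5 and 231.8 against 58.0 and 57.7 CPM) and narrowest for Gbp9 (147.4 and 145.3 against 123.8 and 119.7 CPM).

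Gbp2, a GBP recruited to pathogen vacuoles and the most abundant member, reached 829.0 and 813.1 CPM in wild-type but only 224.4 and 220.9 CPM in TNFR2 KO. Its log2-fold change was -1.88 (standard error, SE, 0.0254, adjusted p = 3.48e-14). The duplicates differed by far less than the genotypes, and dropping any 1 library kept the value between -1.89 and -1.86. Gbp5, which promotes assembly of the NLRP3 inflammasome in macrophages, had 234.5 and 231.8 CPM in wild-type compared with 58.0 and 57.7 CPM in TNFR2 KO. Its log2-fold change was -2.01 (SE 0.0319, adjusted p = 1.38e-13), the largest fall among the members. Only 7.36% of all genes tested had a log2-fold change lower than that of Gbp5, and 7.92% lower than that of Gbp2.

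The remaining genes of the chromosome 3 cluster fell by less. Gbp3, which also targets pathogen vacuoles, went from 246.2 and 245.7 CPM to 152.1 and 156.4 CPM (log2-fold change -0.67, SE 0.0284, adjusted p = 1.18e-09). Gbp7, described as bringing oxidase and autophagy components to such vacuoles, went from 401.0 and 391.4 CPM to 307.7 and 277.5 CPM. It had the widest spread between TNFR2 KO duplicates, 292.6 ± 21.4 CPM (SD, n = 2), and a log2-fold change of -0.44 (SE 0.0398, adjusted p = 1.74e-06). For Gbp3 and Gbp7 the lowest wild-type library still lay well above the highest TNFR2 KO library.

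On chromosome 5, Gbp6 fell by a similar amount to Gbp3, and Gbp4 and Gbp9 showed the smallest falls of the 10 members. Gbp6 went from 224.5 and 221.5 CPM to 139.9 and 135.2 CPM (log2-fold change -0.70, SE 0.0298, adjusted p = 1.32e-09). Gbp4, described as binding the transcription factor IRF7, went from 370.8 and 374.9 CPM to 293.1 and 287.4 CPM (log2-fold change -0.36, SE 0.0255, adjusted p = 1.60e-07). For Gbp9 the values were 147.4 and 145.3 CPM for wild-type and 123.8 and 119.7 CPM for TNFR2 KO (log2-fold change -0.26, SE 0.0321, adjusted p = 2.28e-05). The 95% interval of the log2-fold change was -0.33 to -0.19 for Gbp9 and -0.42 to -0.31 for Gbp4, so both genes fell, though by little.

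Of the IRG members, Irgm1 fell most. Irgm1, a regulator of lysosomes, mitochondria and autophagy whose loss in mice impairs lymphocyte survival under interferon-gamma, went from 213.8 and 202.8 CPM to 112.0 and 102.0 CPM. Its log2-fold change was -0.96 (SE 0.0428, adjusted p = 1.95e-09), just short of the fold threshold. It passed that threshold at -1.02 without TNFR2 KO replicate 1, and also at -1.02 with scaling by library size alone. Igtp, also named Irgm3 and found on the endoplasmic reticulum, went from 330.1 and 317.2 CPM to 206.1 and 201.8 CPM (log2-fold change -0.67, SE 0.0292, adjusted p = 1.66e-09). Irgm2, which resides mainly on the Golgi, was the least abundant member, at 115.5 and 115.9 CPM for wild-type and 71.1 and 70.2 CPM for TNFR2 KO (log2-fold change -0.71, SE 0.0347, adjusted p = 4.64e-09). The 95% intervals of fold overlapped for Igtp (1.52 to 1.66) and Irgm2 (1.55 to 1.73), and also for Gbp3 (1.53 to 1.67) and Gbp6 (1.55 to 1.69). A link of fold change to the likeness of the Igtp and Irgm2 promoter stretches was not tested.

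**Figure D3:**
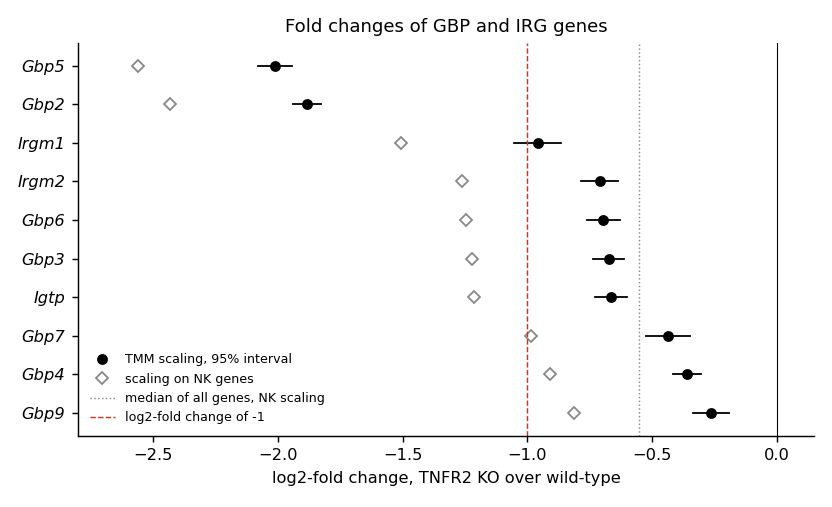
Log2-fold changes of TNFR2 KO over wild-type for the 10 members under TMM scaling (black points, 95% intervals) and under scaling on 43 NK genes (open diamonds). Dotted and dashed lines mark the median of all genes under NK gene scaling (-0.55) and a log2-fold change of -1. Gbp5 and Gbp2 lie apart from the other members, and a change of scaling moves all genes by nearly the same amount.

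All members were lower under every scaling tried, and the size of the falls depended on the scaling. Of the 43 NK scaling genes, 37 were higher and 2 lower in TNFR2 KO at the adjusted p under TMM. Scaling on them could only deepen the falls, so the kept direction is no test of the falls. The other scalings moved values little, for Gbp2 to -1.94 with library size alone and -1.87 with upper-quartile scaling. With the libraries scaled on 43 NK cell genes in place of TMM, the median over all genes shifted to a log2-fold change of -0.55. Past both thresholds were then 7 of the 10 members, while of all 13822 genes 2650 were lower and 58 higher. At the adjusted p alone, 11090 of all genes were lower and 321 higher. The 7 members stood at -2.56 for Gbp5, -2.43 for Gbp2, -1.51 for Irgm1, -1.26 for Irgm2, -1.25 for Gbp6 and -1.22 for both Gbp3 and Igtp. Gbp7, Gbp4 and Gbp9 then stood at -0.99, -0.91 and -0.81. A change of scaling moves all genes by nearly the same amount, so the place of the members below the median was bound to stay.

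Ratios between members within a library do not depend on scaling, and those of Gbp2 and Gbp5 to other members differed between genotypes. Gbp2 counts were 5.62 and 5.60 times those of Gbp9 in the wild-type libraries and 1.81 and 1.85 times in the TNFR2 KO libraries. The ratio of Gbp5 to Gbp9 went from 1.59 and 1.60 to 0.468 and 0.481. By contrast, Igtp over Irgm2 was 2.86 and 2.74 in wild-type and 2.90 and 2.88 in TNFR2 KO, so the genotype means differed by less than the wild-type duplicates did. As a share of the summed CPM of the 10 members, Gbp2 made up 26.6% in both wild-type libraries and 13.3% and 13.6% in the TNFR2 KO libraries. The share of Gbp5 went from 7.53% and 7.58% to 3.44% and 3.54%. The share of Gbp4, in turn, was 11.9% and 12.3% in wild-type and 17.4% and 17.6% in TNFR2 KO. The members together measured 3113 and 3059 CPM for wild-type and 1688 and 1629 CPM for TNFR2 KO.

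**Figure D4:**
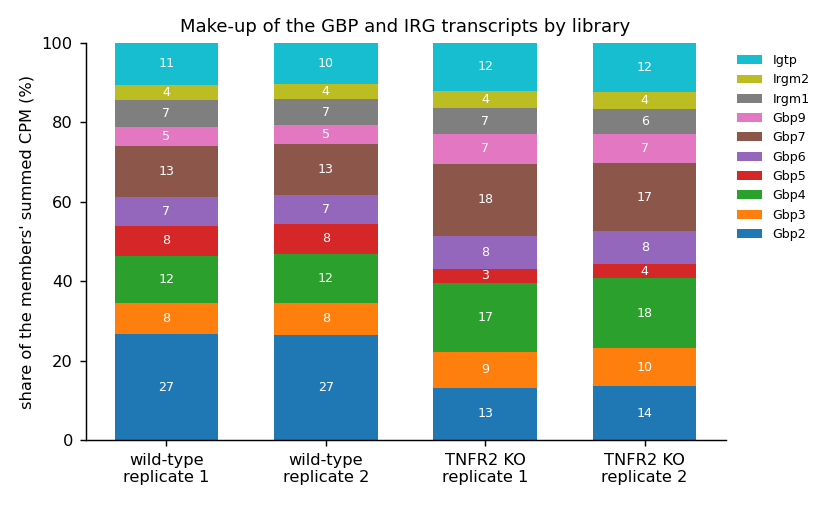
Share of the members' summed CPM (percent) held by each of the 10 genes in the 4 libraries, with rounded shares printed in the bars. Gbp2 holds 26.6% of either wild-type bar but 13.3% and 13.6% of the TNFR2 KO bars, while Gbp4 and Gbp7 hold larger shares in TNFR2 KO.

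Per kilobase of the principal transcript, the order of levels differed between genotypes. In wild-type, Gbp2 was highest at 326.3 ± 4.46 CPM per kb (SD, n = 2), followed by Igtp at 160.1 ± 4.52. Irgm1 (92.2 ± 3.43), Gbp3 (91.7 ± 0.136), Gbp6 (85.6 ± 0.811), Gbp4 (82.2 ± 0.643), Gbp5 (76.3 ± 0.618) and Gbp7 (70.6 ± 1.21) came next, and Gbp9 (33.4 ± 0.336) and Irgm2 (33.3 ± 0.0635) were lowest, all in CPM per kb. The neighbours Irgm1 and Gbp3, and Gbp9 and Irgm2, did not differ beyond their spread. In TNFR2 KO, Igtp was highest at 100.9 ± 1.48 CPM per kb, ahead of Gbp2 at 88.5 ± 0.967, and Gbp5 was lowest at 18.9 ± 0.0834, just below Irgm2 at 20.4 ± 0.199. Between them, in falling order, came Gbp4 (64.0 ± 0.887), Gbp3 (57.5 ± 1.15), Gbp6 (52.8 ± 1.27), Gbp7 (52.1 ± 3.81), Irgm1 (47.4 ± 3.13) and Gbp9 (27.8 ± 0.661). Gbp6 and Gbp7 did not differ beyond their spread, and the libraries of Gbp7 and Irgm1 overlapped. Irgm1 thus stood above Gbp4 in wild-type and below it in TNFR2 KO. Lengths came from GENCODE and not from the authors' annotation.

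Reads of these genes can be shared with close relatives. The estimated counts of Gbp2 and of its neighbour Gbp2b, a GBP outside the 10 members, were fractional in each library, but added up to 41350 and 39859 in wild-type and 15515 and 12758 in TNFR2 KO, whole numbers to within 0.001. Gbp2b itself went from 261.3 and 268.1 CPM to 176.7 and 177.3 CPM (log2-fold change -0.58, adjusted p = 3.89e-09). Summing the pair, a step chosen after those sums were seen, gave -1.44 on the log2 scale (SE 0.0229, adjusted p = 1.47e-13), still past both thresholds. Gbp6 is the least certain member, since 74.2% of its 31-base stretches, the unit Kallisto matches by default, also occur in other genes, with 67.8% in Gm43302 and 51.4% in Gbp10. Between 2.20% (Irgm1) and 18.3% (Gbp9) of the stretches of the other members were shared. Of the stretches of Igtp, 15.9% occur in Irgm2, and of those of Irgm2, 9.16% occur in Igtp, so reads of this pair can be split between them. Gbp2, Gbp2b, Gbp3, Gbp5 and Gbp7 of chromosome 3, summed, had a log2-fold change of -1.12 (SE 0.0228, adjusted p = 1.14e-12). Gbp4, Gbp6, Gbp8, Gbp9, Gbp10 and Gbp11 of chromosome 5, summed, had -0.45 (SE 0.0222, adjusted p = 5.88e-09). These sums lay up to 0.373 and 0.388 from a whole number, so reads may still be shared with genes outside them. Gm43302 was not included and was higher, at 3.03 and 4.01 CPM for wild-type and 6.15 and 5.81 CPM for TNFR2 KO (log2-fold change 0.76).

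Other immunity GTPases were mixed. Of 30 listed symbols, synonyms included, 22 could be tested, of which 14 were lower and 4 higher at the adjusted p, and 9 were lower past both thresholds, with a median log2-fold change of -0.60. The effector IRG gene Tgtp1 fell from 213.3 and 207.3 CPM to 57.2 and 57.7 CPM (log2-fold change -1.87, adjusted p = 4.07e-13). Iigp1, another effector IRG gene, fell from 129.4 and 126.4 to 35.7 and 35.1 CPM (log2-fold change -1.85, adjusted p = 1.60e-12). Gm5431, Gm4951 and F830016B08Rik, further IRG-like genes, had log2-fold changes of -3.11, -3.10 and -3.28, with wild-type means of 21.3, 19.8 and 13.9 CPM. Among the GBPs outside the 10 members, Gbp8 was lower (log2-fold change -0.61, adjusted p = 5.63e-08), while Gbp10 stood at -0.05 (adjusted p = 0.630). Gbp11, annotated as a polymorphic pseudogene, fell at low levels, from 3.88 and 3.91 to 0.905 and 0.780 CPM (log2-fold change -2.20, SE 0.222, adjusted p = 4.50e-06). With that SE its fall could not be ranked against that of Gbp5 (-2.01). Gvin1, Gvin2, Gvin3 and Mx1 were the 4 higher genes. Gvin1, a very large interferon-inducible GTPase and the most abundant of the list, went from 708.0 and 666.2 CPM to 1008 and 935.9 CPM (log2-fold change 0.50, adjusted p = 1.93e-07), a difference that turned to -0.05 with scaling on NK cell genes. Gvin2, Gvin3 and Mx1 turned from 0.45, 0.27 and 0.20 to -0.10, -0.28 and -0.35.

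The interferon genes upstream of the GTPases were split in direction. No gene of these pathway lists was called higher once libraries were scaled on NK cell genes, so every higher call below depends on the scaling. Of 5 ligand and receptor genes tested, Ifngr2, the signalling chain of the interferon-gamma receptor, fell from 25.1 and 24.1 CPM to 3.59 and 3.65 CPM (log2-fold change -2.76, adjusted p = 1.79e-10). Ifngr1, its ligand-binding chain, was higher, going from 335.6 and 340.1 to 493.9 and 504.4 CPM (log2-fold change 0.56, adjusted p = 1.87e-09), a value that became 0.01 with scaling on NK cell genes. Ifnar1 was the other higher gene of this group. Ifng itself, encoding interferon-gamma, had 187.3 and 188.0 CPM for wild-type and 190.9 and 189.3 CPM for TNFR2 KO (log2-fold change 0.02, adjusted p = 0.601), and -0.53 with scaling on NK cell genes. Of 13 signal transducers, 6 were lower and 6 higher, with a median log2-fold change of 0.03. Irf7 fell from 318.4 and 323.1 to 128.5 and 124.3 CPM (log2-fold change -1.34, adjusted p = 1.96e-12) and Batf2, an interferon-induced partner of IRF1, from 28.8 and 27.8 to 3.02 and 3.12 CPM (log2-fold change -3.20, adjusted p = 3.42e-11). Stat2 and Irf1, whose products act at ISRE sites, had log2-fold changes of -0.63 and -0.30. Other factors that act there were higher, Irf9 by 0.19 (adjusted p = 0.000683), Irf2 by 0.10 (adjusted p = 0.0233) and Irf8 by 0.60 (adjusted p = 1.08e-09) on the log2 scale, and these became -0.36, -0.45 and 0.05 with scaling on NK cell genes. Jak1, the most abundant gene of this list, was higher by 0.40 (adjusted p = 2.33e-08). Of 6 feedback genes, 3 were lower and 1 higher, with Ptpn6, a phosphatase, at a log2-fold change of -0.56 (adjusted p = 8.58e-09).

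Among listed genes whose products load, anchor or follow the GTPases, only Nlrp3 passed both thresholds under TMM scaling. Past both thresholds, 11.8% of all genes were lower and 1.56% higher. With scaling on NK cell genes, all 10 genes of the ATG8 conjugation list and all 6 prenylation genes were lower at the adjusted p. By that rule 11090 of all 13822 genes tested were lower. The ATG8 conjugation machinery, which directs IRGs and GBPs to vacuoles, had 1 of 10 genes lower and 4 higher, and its most abundant gene Gabarap had 211.0 ± 1.65 CPM for wild-type and 211.4 ± 4.91 CPM for TNFR2 KO (SD, n = 2). Of 6 genes for prenylation, the lipid anchor that some GBPs carry, 0 were lower by edgeR at the adjusted p (the lowest log2-fold change was -0.002, for Zmpste24, unadjusted p = 0.951), 0 by DESeq2, and 2 were higher by edgeR. Of 7 inflammasome genes, 5 were lower and 1 higher. Among them Nlrp3, the sensor, fell from 12.3 ± 0.113 to 1.28 ± 0.310 CPM (SD, n = 2; log2-fold change -3.27, adjusted p = 7.64e-09 in edgeR), while Pycard, its adaptor, was higher, from 160.9 and 166.4 to 212.8 and 219.5 CPM (log2-fold change 0.40, adjusted p = 3.28e-07).

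Markers of other cells moved with genotype beside the GTPases. TNFR2 KO libraries held 24.8% of the wild-type level of Gbp5, 27.1% of Gbp2, 51.4% of Irgm1, and 61.1% to 83.2% of the others. By comparison they held 13.9% of the summed macrophage or monocyte markers without Ccr2. The median log2-fold change of the 37 macrophage markers was -2.97, with quartiles of -3.22 and -2.79, and 35 of the 37 had a lower log2-fold change than Gbp5. Lyz2, the lysozyme gene of myeloid cells and the most abundant of them, fell from 771.5 and 777.7 to 114.0 and 110.4 CPM. Lists of neutrophil, mast cell or basophil, and erythroid markers were lower past both thresholds for 16 of 16, 10 of 11 and 9 of 9 genes, and class II or dendritic cell markers for 8 of 13. The mast cell gene Cma1 and the integrin gene Itgax, of the dendritic cell list, were instead higher past both thresholds (log2-fold changes 1.69 and 1.11). Summed neutrophil markers were 1046 and 1062 CPM for wild-type and 111.6 and 107.2 CPM for TNFR2 KO, and summed mast cell or basophil markers 1281 and 1277 against 102.8 and 103.0 CPM. Summed class II or dendritic cell markers were 2280 and 2308 against 1072 and 1094 CPM, and without Itgax 1861 and 1899 against 189.2 and 186.0 CPM. Erythroid markers summed to 278.5 and 274.0 against 55.9 and 59.7 CPM. T cell markers stood at 1367 and 1354 CPM for wild-type and 1265 and 1299 CPM for TNFR2 KO, B cell markers summed to between 40.2 and 50.8 CPM, and stromal or endothelial markers to between 111.3 and 137.1 CPM, nearly all from the endothelial and leukocyte adhesion gene Pecam1. Of the 6 stromal or endothelial genes tested, 3 were lower past both thresholds, and without Pecam1 the list summed to 5.85 and 6.32 CPM for wild-type and 2.74 and 1.84 CPM for TNFR2 KO. All 12 NK identity genes tested were higher in TNFR2 KO, with a median log2-fold change of 0.82 under TMM scaling. The part of these other cells in the levels of the GTPases was not tested.

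**Figure D5:**
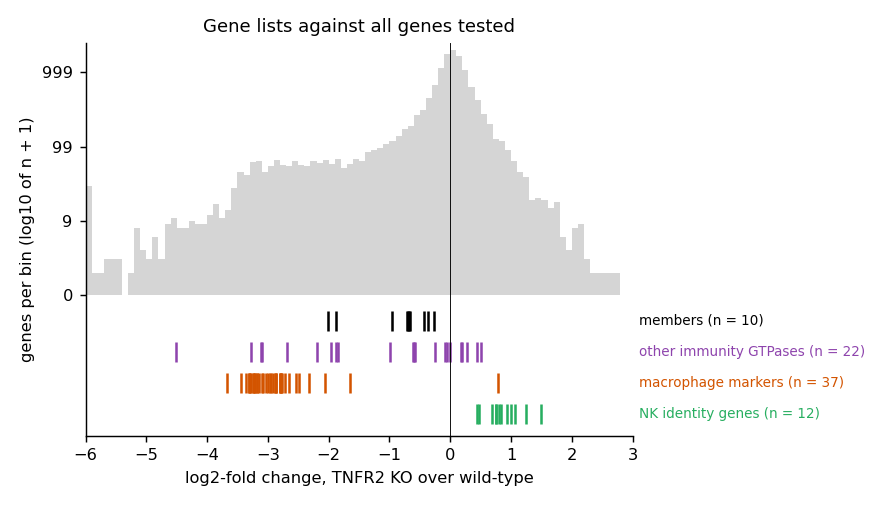
Number of genes per bin of 0.1 in log2-fold change (grey, log scale of the number plus 1) for the 13822 genes tested, with values under -6 placed in the first bin, and below it the log2-fold change of each gene in 4 lists. The 10 members lie between -2.01 and -0.26, between most macrophage markers (median -2.97) and the NK identity genes (median 0.82).

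The genes whose levels over the 4 libraries lay nearest to those of Gbp2, by distance of centred log2 CPM among 8763 genes averaging 10 CPM or more, were Serpina3g (distance 0.0217), Blvrb (0.0244) and Tgtp1 (0.0325). Serpina3g, a serine protease inhibitor gene, went from 772.8 and 760.3 to 208.4 and 209.3 CPM. With 4 libraries in 2 groups, such likeness rests mainly on a similar fold change.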

How the data were processed

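RNA was sequenced from sorted Ly49H+ NK cells as 2 wild-type and 2 TNFR2 KO libraries, with same-numbered libraries from the same spleen pool. The authors made poly-A selected, stranded, paired-end libraries (100 bases), trimmed reads with Trimmomatic (1.4 in the submitters' notes), assigned them to mm10 transcripts with Kallisto 0.46.1, and summed them per gene symbol with Tximport. They deposited these estimated counts (expected counts) without scaling; sources used here do not give their transcript annotation. A row without a gene name (0.056% to 0.073% of counts) was left out.

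Counts were rounded, filtered with filterByExpr, scaled with TMM and tested with edgeR 4.0.16 (R 4.3.3), genotype as the only term; 13822 genes were tested. Standard errors are the absolute log2-fold change over the root of the F statistic. The steps were tested on simulated data with few changed genes, up and down alike, so scaling under uneven changes was not tested. Labels state that same-numbered libraries share a spleen pool, so numbers pair the samples; their deviations from the group means correlated at 0.049 across genes, and the block changed no member's call. Duplicates differed by more than sampling noise (mean chi-square per gene 3.29 and 3.49).

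Members and lists were chosen with earlier results of these data known; lists were written by hand. Genes named are the members, the targeted gene, up to 5 called genes and the most abundant of each pathway list, abundant markers, and the 3 genes nearest to Gbp2. Other genes named (Ncr1, Klra8, Gbp2b, Gbp8, Gbp10, Gbp11, Gvin2, Gvin3, Mx1, Ifng, Ifnar1, Stat2, Irf1, Irf2, Irf8, Irf9, Cma1, Gm43302) were chosen after their values were seen, as were the marker sums without Ccr2, Itgax or Pecam1. Positions and shared stretches came from GENCODE M21 (GRCm38), promoters from RefSeq GRCm38.p6. One gene of the signal transducer list is not reported here by name. Alternatives were other scalings, DESeq2 1.42.0, other filters, the replicate block, summed paralogs and each library left out.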

Additional observations from a re-analysis of the deposited data

How the results depend on the processing

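Under 12 alternatives for every member, all log2-fold changes of members kept their direction. In the alternatives that used all 4 libraries, every member also kept an adjusted p under 0.05. The summed paralog counts, which are not values of single members, were lower as well. Leaving out a library leaves a lone sample that is assumed to vary like the other group. With each library left out in turn, log2-fold changes of the members stayed between -2.01 and -1.99 for Gbp5, -1.89 and -1.86 for Gbp2, -1.02 and -0.89 for Irgm1, and -0.50 and -0.36 for Gbp7, which moved most. The replicate block, which pairs libraries of the same spleen pool, gave -2.01 for Gbp5 and -1.88 for Gbp2, kept 10 members lower and changed no other call of a member. Scaling on NK cell genes put 7 members past both thresholds in place of 2, and over all genes gave 2650 lower and 58 higher genes past both thresholds (1627 and 215 with TMM), and 11090 lower and 321 higher at the adjusted p (3624 and 3341 with TMM). It left 0 genes higher in any of the 7 pathway lists, with 4 lower ligand and receptor genes, 12 transducers, 6 feedback genes, 10 ATG8 conjugation genes and 6 prenylation genes. It put 1 B cell and 2 T cell markers past both thresholds. A mean of at least 10 CPM, with fewer genes tested, gave 424 lower and 56 higher genes past both thresholds. That filter and library size alone each gave 2 lower genes among the receptors and among the ATG8 list and 1 higher prenylation gene, and library size alone left 0 feedback genes higher. Library size alone also moved the split of calls at the adjusted p to 4388 lower and 2419 higher. DESeq2 gave 2 higher ATG8 conjugation genes and 1 higher prenylation gene. Leaving out a library gave 1 to 2 higher prenylation genes. The cause of these shifts was not tested beyond the scaling and filter themselves. With 2 libraries per genotype, differences between mice are not covered, and the least abundant genes tested rest on few counts.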
